A study of Mus musculus with 547 samples.

Results

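Cholangiocytes, the cells that line bile ducts, were compared with hepatocytes in the mouse fetal liver on embryonic day E15.5. The cholangiocytes are 36 single cells that were sorted for the epithelial surface protein EpCAM and that the authors annotated as putative cholangiocytes. The hepatocytes are 39 single cells of the same day that were sorted for the surface protein DLK1 and annotated as hepatoblast/hepatocyte. These 75 cells are part of 529 single cells in the series, of which 447 came straight from embryos. Both groups were untreated and uncultured, and the labels used here give no strain or genotype. Cells were picked by mouth pipette after sorting and amplified by Smart-seq2, a full-length single-cell method without molecular identifiers. The series description names a road map of both liver lineages as its aim. Reads of the cells of a type were added up by the set number in the titles, which gave 3 sums of 18, 8 and 10 cholangiocytes (sets 2, 3 and 4) and 3 sums of 12, 8 and 19 hepatocytes (sets 1, 3 and 4). What a set stands for (embryos, sorting day or plate) is not in the labels, so the p-values speak to differences among sets and may hold technical spread.

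Hepatocytes and cholangiocytes arise from a shared progenitor, the hepatoblast. Hepatoblasts next to the portal vein receive Notch and TGF-beta signals, switch on Sox9 and other biliary transcription factors and form a ductal plate that later becomes bile ducts. Hepatoblasts elsewhere mature into hepatocytes, which secrete plasma proteins, make bile acids and sterols and take over the metabolism of the body.

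The cells held 851002 to 2111839 reads and reads for 7359 to 9944 genes each, and the 6 sums held 8052242 to 20963998 reads. Median reads per cell averaged 1047500 ± 30281 in the cholangiocyte sets and 1122900 ± 31417 in the hepatocyte sets (SD, n = 3 sets each), a difference with p = 0.1 in an exact two-sided permutation test, the smallest p that 3 against 3 sets can give. Reads from ERCC spike-in RNA, which was in the lysis buffer of each cell, had set medians of 2.99 ± 0.76% in cholangiocytes and 1.89 ± 0.79% in hepatocytes (SD, n = 3 sets each, exact permutation p = 0.2). Pearson correlations of log2(CPM + 1) ran from 0.927 to 0.957 among the cholangiocyte sums, with set 3 the lowest, from 0.962 to 0.970 among the hepatocyte sums and from 0.845 to 0.900 between the types.

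Levels are normalised CPM (reads scaled to a common library total), and changes are log2 fold changes of cholangiocytes over hepatocytes ± SE from edgeR's quasi-likelihood fit, with Benjamini-Hochberg adjustment over all 16838 genes tested. Adjusted p below 0.05 is called. In cholangiocytes 1019 genes (6.05% of those tested) rose and 1301 (7.73%) fell, with a median log2 change over all genes of 0.10. The count of rises was 635, 574 and 612 when hepatocyte set 1, 3 or 4 was left out and 675 when cholangiocyte set 3 was left out. With library sizes set by the spike-ins, 389 genes rose and 1004 fell, so that 27.9% of calls were rises, against 43.9% with the default scaling. The spike-in scaling moved the median over all genes by -0.24, to -0.14, and small changes are to be read relative to it. The authors' annotation may rest on the same genes that are compared here. A comparison that needs no annotation sets the whole EpCAM+ gate, with the 2 further cells in it that are annotated hepatoblast/hepatocyte, against the DLK+ gate. It gave 952 rises and 1194 falls, and 2138 of the 2320 calls were shared. All cells of the main comparison are in it and only those 2 are added. A high overlap was thus set in advance and says little about the part of the annotation.

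Cholangiocytes carried the biliary markers Sox9, Krt19, Krt7, Spp1 and Epcam, each of which rose. Of the 6 hepatocyte markers (Alb, Ttr, Hnf4a, Cebpa, Apoa1, Afp), 4 fell in cholangiocytes, and Alb and Hnf4a were not called. Cebpa, a factor of hepatocyte maturation, was the least firm of the falls (log2 change -1.82, adjusted p = 0.016) and was not called without hepatocyte set 1 or cholangiocyte set 2 or 3 (adjusted p = 0.057, 0.085 and 0.11), or with only the E15.5 sums fitted. Cebpa was also not called with the set number as a replicate block, over all sums or on sets 3 and 4 only. With spike-in scaling, and with DESeq2, all 6 hepatocyte markers were called lower. These markers do not go against the labels, but the sort and perhaps the annotation chose the cells by such genes, so they are a description and no test of the labels. Epcam and Dlk1 encode the sorted proteins and are no finding. The cholangiocytes also held hepatocyte transcripts at high levels. Epcam had 325, 449 and 308 CPM in the cholangiocyte sets against 0.242, 0.731 and 0.927 CPM in the hepatocyte sets. Dlk1 had 443, 276 and 452 CPM in cholangiocytes against 1129, 1260 and 1084 CPM in hepatocytes. The plot of levels by set shows these markers beside other genes of each type.

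Among transcription factors with a biliary role, 9 of 15 rose and none fell, with a median log2 change of 2.44 against 0.10 over all genes. The count of rises was 4 in a fit with the set number as a replicate block, and 6 to 9 with a set left out. Sox9, which drives the biliary programme (ENSMUSG00000000567, GRCm38 chromosome 11), had 514, 755 and 531 CPM in the cholangiocyte sets against 0, 0 and 2.29 CPM in the hepatocyte sets, a log2 change of 9.36 ± 1.42 (adjusted p = 1.3e-05). All 3 cholangiocyte sets were far above every hepatocyte set. Single cells followed the sets: Sox9 reached 1 TPM, a unit per transcript length, in 35 of 36 cholangiocytes and in 2 of 39 hepatocytes. Onecut1, also known as HNF6, had 38.4, 65.6 and 45.7 CPM in cholangiocytes against 6.87, 3.53 and 3.40 CPM in hepatocytes (3.43 ± 0.43, adjusted p = 6.2e-07). Sox4, a partner of Sox9 in duct formation, had 20.5, 30.4 and 16.3 CPM in cholangiocytes and no read in any hepatocyte set, which makes it at least 84.7-fold higher at a floor of 3 reads per set. Grhl2, a regulator of epithelial barrier genes, had 8.77, 13.8 and 9.71 CPM in cholangiocytes and no read in hepatocytes (at least 40.7-fold higher, adjusted p = 0.0031).

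The keratins of simple epithelia, the intermediate filaments of ducts, did not move as a block. Of 6 measured, 4 rose and 1 fell, and 2 rose with spike-in scaling. Krt19, the keratin most used to stain bile ducts, had 15.4, 62.4 and 17.2 CPM in cholangiocytes and no read in hepatocytes (at least 120-fold higher, adjusted p = 0.00084). Krt7 had 55.8, 119 and 83.9 CPM in cholangiocytes against 0.566, 0.487 and 0.742 CPM in hepatocytes (7.12 ± 0.85, adjusted p = 2.3e-07). Krt8, a keratin of all liver epithelial cells, differed far less, with 1579, 1871 and 1500 CPM in cholangiocytes against 604, 711 and 677 CPM in hepatocytes (1.31 ± 0.19, adjusted p = 4.1e-06), and was not called with spike-in scaling. Krt20, a keratin of gut and urinary epithelium, fell, with 33.2, 34.6 and 39.0 CPM in cholangiocytes against 114, 204 and 92.7 CPM in hepatocytes (-1.94 ± 0.43, adjusted p = 0.0016).

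Secreted and surface proteins of biliary cells had 8 of 14 measured members higher and none lower, with a median log2 change of 2.60. Spp1, which encodes the secreted phosphoprotein osteopontin (ENSMUSG00000029304, chromosome 5, 104435118 to 104441050), had 2108, 4303 and 300 CPM in the cholangiocyte sets against 2.02, 0.487 and 0.124 CPM in the hepatocyte sets (11.32 ± 1.26, adjusted p = 8.8e-08). Set 4 of the cholangiocytes was the lowest and still far above the hepatocytes. Per cell, Spp1 ran from 0 to 13586 TPM in cholangiocytes, with a median of 421, and from 0 to 8.50 TPM in hepatocytes. Spon1, which encodes a matrix protein, had 540, 434 and 396 CPM in cholangiocytes and 2 reads in all in hepatocytes (adjusted p = 1.9e-09), and it reached 1 TPM in 34 of 36 cholangiocytes and 0 of 39 hepatocytes. Cd24a, a surface protein of progenitor and ductal epithelia, had 451, 600 and 281 CPM in cholangiocytes against 0.646, 0.122 and 0.989 CPM in hepatocytes (9.39 ± 0.68, adjusted p = 3.3e-11). Cd24a was at 35.4 TPM or more in every cholangiocyte, while Krt19 reached 1 TPM in 19 of 36. Tspan8, a tetraspanin of gut and duct epithelia, was at 0 in 26 of 36 cholangiocytes, although its sums of 16.6, 18.3 and 14.7 CPM were alike in all 3 sets.

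Cell junction genes rose and fell by member. Of 24 genes of cell junctions, 9 rose and 1 fell. The rises were 6 with spike-in scaling, 5 with the replicate block and 7 to 9 with a set left out. Cldn6, a claudin of embryonic epithelia, had 724, 969 and 460 CPM in cholangiocytes against 0.162, 0 and 0.124 CPM in hepatocytes (12.57 ± 1.35, adjusted p = 3.7e-08). Cldn3 had 136, 86.1 and 82.2 CPM in cholangiocytes against 0.727, 1.58 and 2.97 CPM in hepatocytes (5.82 ± 0.97, adjusted p = 5.1e-05). Cldn7 had 186, 185 and 136 CPM in cholangiocytes against 7.27, 3.05 and 1.73 CPM in hepatocytes (5.39 ± 1.19, adjusted p = 0.0015). Cdh6, a cadherin, had 73.8, 110 and 22.5 CPM in cholangiocytes and no read in hepatocytes (at least 259-fold higher, adjusted p = 5.7e-08). The claudin that fell was Cldn1, a main tight junction protein of hepatocytes, with 60.3, 19.1 and 130 CPM in cholangiocytes against 386, 495 and 707 CPM in hepatocytes (-2.92 ± 0.36, adjusted p = 3.7e-07). Cldn14, which is outside that list, was among the largest falls, with 1 read over the cholangiocyte sets against 32.7, 35.3 and 19.7 CPM in hepatocytes (adjusted p = 0.00021).

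Of 14 measured basement membrane genes 8 rose and none fell, with a median of 1.79. Lama5, which encodes a laminin chain, had 34, 63.2 and 59.0 CPM in cholangiocytes against 2.83, 2.32 and 3.40 CPM in hepatocytes (4.18 ± 0.90, adjusted p = 0.0011). Itga6, which encodes an integrin subunit that binds laminin, had 25.9, 38.2 and 50.5 CPM in cholangiocytes against 2.67, 0.731 and 2.35 CPM in hepatocytes (4.29 ± 0.61, adjusted p = 4.9e-06). Itga6 and Itgb1 were the members called among 15 integrins and laminin receptors, and Itgb1 (log2 change 0.72) was not called with spike-in scaling. The count of basement membrane rises was 4 with spike-in scaling, 5 without hepatocyte set 1, 4 without hepatocyte set 3 and 5 without cholangiocyte set 3. Without cholangiocyte set 4 it was 6, with 1 basement membrane gene and 1 integrin or laminin receptor called lower.

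Genes of cyst formation and the primary cilium were split, with 4 of 17 higher and 3 lower. With spike-in scaling 1 was lower, and the list median of 0.63 became -0.09. Pkhd1, which encodes fibrocystin, had 77.6, 116 and 123 CPM in cholangiocytes against 8.56, 2.68 and 8.78 CPM in hepatocytes (3.96 ± 0.71, adjusted p = 0.00013). Bicc1, an RNA-binding protein whose loss gives cysts, had 153, 207 and 149 CPM in cholangiocytes against 10.7, 18.6 and 8.65 CPM in hepatocytes (3.75 ± 0.79, adjusted p = 0.00091). Pkd2, which encodes a cation channel of the cilium, had 58.7, 32.2 and 22.5 CPM in cholangiocytes against 3.31, 0.487 and 4.76 CPM in hepatocytes (3.70 ± 0.81, adjusted p = 0.0013). Kif3a, a motor subunit of transport in the cilium, had 123, 101 and 107 CPM in cholangiocytes against 13.3, 11 and 8.65 CPM in hepatocytes (3.33 ± 0.47, adjusted p = 4.2e-06). Ift20, a carrier of cilium cargo, fell, with 34, 33 and 33.6 CPM in cholangiocytes against 74.9, 90.1 and 88.7 CPM in hepatocytes (-1.33 ± 0.19, adjusted p = 4.5e-06).

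Transporters and channels of duct secretion had 5 rises and 2 falls among 16, and 3 rises without hepatocyte set 3 or 4 and with spike-in scaling. The calcium-activated chloride channel Ano1 had 12.3, 12 and 18 CPM in cholangiocytes and no read in hepatocytes (at least 53.9-fold higher, adjusted p = 0.0015). Ezr, which encodes ezrin, a linker of membrane and actin at the apical surface, had 95.9, 76.3 and 70.3 CPM in cholangiocytes against 22.5, 13.9 and 11.1 CPM in hepatocytes (2.35 ± 0.44, adjusted p = 0.00026). The water channel Aqp8, which sits in the canalicular membrane of hepatocytes, had 0, 0.0991 and 2.09 CPM in cholangiocytes against 49.4, 18 and 125 CPM in hepatocytes (-6.65 ± 1.48, adjusted p = 0.0016), and was not called between the whole gates.

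In the Notch pathway 5 of 16 measured genes rose and 1 fell, and 3 rose with spike-in scaling and 2 with the replicate block. The ligand Jag1, whose loss in humans gives a paucity of bile ducts, had 45.7, 105 and 68.6 CPM in cholangiocytes against 0, 0 and 0.371 CPM in hepatocytes (8.85 ± 1.65, adjusted p = 0.00027). The cleaving protease Adam10 had 144, 168 and 166 CPM in cholangiocytes against 68.0, 73.7 and 68.6 CPM in hepatocytes (1.19 ± 0.28, adjusted p = 0.0028), and was not called with spike-in scaling. The target Hes1 had 230, 282 and 69.3 CPM in cholangiocytes against 24.5, 56.4 and 27.9 CPM in hepatocytes (2.42 ± 0.53, adjusted p = 0.0015). Hes1 in single cells ran from 0 to 2061 TPM in cholangiocytes and from 0 to 208 TPM in hepatocytes, so the ranges of the types overlapped. The receptor Notch1 fell, with 0.671, 0.198 and 0 CPM in cholangiocytes against 5.33, 1.10 and 6.92 CPM in hepatocytes (-3.75 ± 1.2, adjusted p = 0.032), and was not called when hepatocyte set 1 or 4 or cholangiocyte set 3 or 4 was left out. It was named after its values were seen.

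Genes of the YAP pathway and its targets, which respond to cell shape and contact, had 10 of 22 members higher and none lower. The rises were 8 with spike-in scaling, 5 with the replicate block and 7 to 9 with a set left out. The list median was 2.67, and 2.37 with genes that had no read in a type set at their bound. Ctgf, a secreted target, had 101, 162 and 37.6 CPM in cholangiocytes and 2 reads in all in hepatocytes (adjusted p = 4.9e-09). Tead2, a DNA-binding partner of YAP, had 102, 123 and 82.2 CPM in cholangiocytes against 5.49, 10.2 and 6.55 CPM in hepatocytes (3.79 ± 0.44, adjusted p = 1.5e-07). Ptpn14, a phosphatase that binds YAP, had 13.3, 12.8 and 6.09 CPM in cholangiocytes and no read in hepatocytes (at least 40.6-fold higher, adjusted p = 0.0029). The core motif of TEAD factors, GGAATG on either strand, was searched in RefSeq promoter windows (GRCm38.p6) of 300 bases, from 250 before to 50 after a gene's start. It was present in 12 of the 17 list members matched to a window, among them 6 of 7 called members, and in 14.7% of all 32851 windows, or 16.6% of 27025 genes with a window. The match describes these letters and is no evidence of binding. The windows of Ajuba and Amotl2 are shown because both genes were called and carry the motif, a choice made after their values were seen. Ajuba, a scaffold protein that restrains the kinases upstream of YAP, had 112, 127 and 98.0 CPM in cholangiocytes against 31.4, 13.2 and 36.0 CPM in hepatocytes (2.06 ± 0.33, adjusted p = 2.7e-05). Amotl2, a binding partner of YAP, had 81.2, 118 and 123 CPM in cholangiocytes against 5.09, 14.3 and 23.4 CPM in hepatocytes (2.91 ± 0.74, adjusted p = 0.0060). Capitals mark the motif, here on the strand opposite to its usual spelling.
Ajuba, chr14:54577612-54577911, minus strand: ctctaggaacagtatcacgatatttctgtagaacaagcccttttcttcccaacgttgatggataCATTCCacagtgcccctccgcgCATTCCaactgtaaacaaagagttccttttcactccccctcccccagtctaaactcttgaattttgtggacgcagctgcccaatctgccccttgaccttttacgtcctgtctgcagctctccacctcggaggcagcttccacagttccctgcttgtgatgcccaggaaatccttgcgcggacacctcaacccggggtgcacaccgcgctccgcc
Amotl2, chr9:102717554-102717853, plus strand: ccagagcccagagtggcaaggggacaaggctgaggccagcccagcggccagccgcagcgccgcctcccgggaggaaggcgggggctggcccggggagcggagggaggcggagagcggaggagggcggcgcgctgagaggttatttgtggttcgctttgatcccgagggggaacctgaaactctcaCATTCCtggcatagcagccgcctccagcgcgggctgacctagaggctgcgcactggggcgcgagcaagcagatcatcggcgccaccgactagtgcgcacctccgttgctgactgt

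Other signalling lists moved less. ERK feedback genes and targets had 3 of 19 higher, and their median of 0.36 became -0.16 with spike-in scaling. Ccnd1, which encodes cyclin D1, had 383, 408 and 276 CPM in cholangiocytes against 165, 155 and 142 CPM in hepatocytes (1.21 ± 0.17, adjusted p = 4.9e-06), and was not called with spike-in scaling. TGF-beta and BMP genes had 3 of 20 higher, among them the corepressor Tgif1, with 90.2, 153 and 104 CPM in cholangiocytes against 24, 40.2 and 28.1 CPM in hepatocytes (1.91 ± 0.33, adjusted p = 8.6e-05). The Wnt pathway had 3 higher and 4 lower of 20, between 1 and 3 each way with a set left out, and its median of -0.47 became 0.03 with only the E15.5 sums fitted and 0.43 with the replicate block on sets 3 and 4. Sfrp1, a secreted Wnt inhibitor, had 8.35, 8.72 and 18.6 CPM in cholangiocytes and no read in hepatocytes (at least 44.9-fold higher, adjusted p = 0.00016). The Wnt receptor Lgr5 had 0, 0.198 and 2.00 CPM in cholangiocytes against 9.53, 20.7 and 10.4 CPM in hepatocytes (-4.33 ± 1.16, adjusted p = 0.0089), and was not called when cholangiocyte set 2 or 3 was left out (adjusted p = 0.052 and 0.058). Nor was Lgr5 called with only the E15.5 sums fitted, or in either fit with a replicate block.

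The largest rises, taken by log2 change among called genes of at least 10 CPM whose sets did not overlap, were Tmem45a, Spint1, Gpm6b, Spon1, Cdh6, Cldn6, Ctxn1, Tubb4a, Ror1 and Pxdn. Spint1, an inhibitor of serine proteases at epithelial surfaces, had 66.4, 115 and 58.5 CPM in cholangiocytes and no read in hepatocytes (at least 303-fold higher, adjusted p = 0.00016). Gpm6b, a membrane glycoprotein best known in neural cells, had 93.6, 75.8 and 61.4 CPM in cholangiocytes and no read in hepatocytes (at least 291-fold higher, adjusted p = 0.00044). Tmem45a had 128, 173 and 1.81 CPM in cholangiocytes and no read in hepatocytes (at least 382-fold higher, adjusted p = 0.0011), so set 4 was far below the other sets. The beta-tubulin Tubb4a had 39.9, 102 and 5.24 CPM in cholangiocytes and no read in hepatocytes, and it was at 0 in 18 of 36 cholangiocytes. Pxdn, which encodes peroxidasin, an enzyme that crosslinks collagen IV, was at least 175-fold higher. The receptor tyrosine kinase Ror1 was at least 179-fold higher, with 13.6, 84.4 and 43.8 CPM in cholangiocytes.

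The largest falls by the same rule were Miox, Mcoln2, Cyp3a11, Atp2b2, Slc6a12, Abcb11, Tuba8, Hsd11b1, Slco1b2 and Cldn14. Miox, which opens the ring of myo-inositol, had no read in cholangiocytes against 44.2, 96.5 and 41.3 CPM in hepatocytes (at least 257-fold lower, adjusted p = 5.2e-07). Mcoln2, a cation channel of endosomes, had no read in cholangiocytes against 39.3, 62.9 and 61.2 CPM in hepatocytes (at least 231-fold lower, adjusted p = 8.3e-07). Slc6a12, a transporter of betaine, had no read in cholangiocytes against 24.2, 25.3 and 24.4 CPM in hepatocytes (at least 104-fold lower, adjusted p = 2.7e-06). Hsd11b1, which regenerates active glucocorticoid, had no read in cholangiocytes against 4.52, 7.07 and 23.7 CPM in hepatocytes (at least 49.7-fold lower, adjusted p = 0.0011). For these 4 genes no cholangiocyte set held a read. The rule asked for sets that do not overlap, so a read in every hepatocyte set was fixed in advance. Among 39 hepatocytes, Miox, Mcoln2, Slc6a12 and Hsd11b1 were at 0 in 5, 3, 15 and 26 cells.

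Plasma proteins were lower in cholangiocytes, but far from absent. Of 24 plasma carriers and apolipoproteins, 13 fell and 1 rose, with a median of -1.30. Afp, the fetal plasma protein alpha-fetoprotein (ENSMUSG00000054932, chromosome 5, 90490737 to 90508907), had 41856, 25572 and 56064 CPM in the cholangiocyte sets against 99166, 94737 and 113000 CPM in the hepatocyte sets (-1.31 ± 0.22, adjusted p = 5.9e-05). The sets of the types did not overlap for Afp. Its per-cell range was 7644 to 65202 TPM in cholangiocytes and 36704 to 109470 TPM in hepatocytes, so Afp was detected in every cholangiocyte. Albumin (Alb) had 30357, 17151 and 53341 CPM in cholangiocytes against 58738, 51838 and 80892 CPM in hepatocytes (-0.92 ± 0.37, adjusted p = 0.095), and the sets overlapped. Apoa1, the main protein of HDL, had 3261, 2019 and 4722 CPM in cholangiocytes against 12291, 15353 and 14483 CPM in hepatocytes (-2.07 ± 0.38, adjusted p = 0.00018). Apoc4 had 14.4, 1.19 and 14.9 CPM in cholangiocytes against 308, 260 and 339 CPM in hepatocytes (-4.88 ± 0.60, adjusted p = 4.1e-07). Fabp1, the liver fatty acid binding protein, had 35.5, 131 and 142 CPM in cholangiocytes against 977, 1114 and 904 CPM in hepatocytes (-3.28 ± 0.61, adjusted p = 0.00022).

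Gc, the plasma carrier of vitamin D, went the other way within the same list. It had 8024, 4896 and 10462 CPM in the cholangiocyte sets against 1611, 1726 and 2088 CPM in the hepatocyte sets (2.11 ± 0.52, adjusted p = 0.0048). No set overlapped, and the cell medians were 8204 TPM in cholangiocytes and 1384 TPM in hepatocytes. The complement list was also mixed, with 3 higher and 9 lower of 20, and with 1 higher and 9 lower with spike-in scaling. C9, a part of the membrane attack complex, had 137, 83.9 and 158 CPM in cholangiocytes against 18.0, 4.87 and 20.5 CPM in hepatocytes (3.12 ± 0.90, adjusted p = 0.018), and was not called with spike-in scaling or without hepatocyte set 1 or 3 (adjusted p = 0.053 and 0.1 without these sets). C8g, another subunit gene of that complex, fell, with 34.5, 9.42 and 32.7 CPM in cholangiocytes against 210, 233 and 232 CPM in hepatocytes (-3.13 ± 0.40, adjusted p = 6.6e-07).

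Of 20 genes of coagulation and its inhibitors 13 fell and none rose, with a median of -1.66. The fibrinogen chain gene Fga had 1017, 734 and 1464 CPM in cholangiocytes against 3972, 4236 and 4808 CPM in hepatocytes (-2.02 ± 0.31, adjusted p = 1.2e-05). Serpind1, which encodes heparin cofactor II, an inhibitor of thrombin, had 271, 191 and 503 CPM in cholangiocytes against 1474, 1614 and 1748 CPM in hepatocytes (-2.32 ± 0.26, adjusted p = 5.9e-08). F7, which encodes coagulation factor VII, had 6.55, 0 and 3.52 CPM in cholangiocytes against 73.4, 45.3 and 50.4 CPM in hepatocytes (-4.01 ± 0.85, adjusted p = 0.0010).

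Of 23 genes of sterol and fatty acid synthesis 20 fell and none rose, the largest share of falls in the 34 lists. Its median was -2.19, and 19 or 20 members fell with any 1 set left out and 20 with spike-in scaling and between the whole gates. Fdps, which makes farnesyl diphosphate, had 84.3, 73.1 and 115 CPM in cholangiocytes against 834, 822 and 946 CPM in hepatocytes (-3.26 ± 0.20, adjusted p = 2.7e-12). Lss, which closes the sterol ring, had 79.9, 52.7 and 66.8 CPM in cholangiocytes against 636, 702 and 648 CPM in hepatocytes (-3.31 ± 0.30, adjusted p = 1.8e-09). Insig1, which holds the sterol sensor in the endoplasmic reticulum and is itself sterol regulated, had 70.4, 59.5 and 43.3 CPM in cholangiocytes against 439, 525 and 425 CPM in hepatocytes (-3.00 ± 0.31, adjusted p = 2.2e-08). Scd1, which desaturates fatty acids, had 2.14, 1.29 and 1.33 CPM in cholangiocytes against 139, 189 and 123 CPM in hepatocytes (-6.51 ± 0.88, adjusted p = 2.1e-06). For each of these 4 genes all cholangiocyte sets were below all hepatocyte sets, and the 3 values of a type lay close together. In single cells Fdps ran from 19.8 to 375 TPM in cholangiocytes and from 390 to 1869 TPM in hepatocytes, so no cell of a type reached the range of the other.

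**Figure D1:**
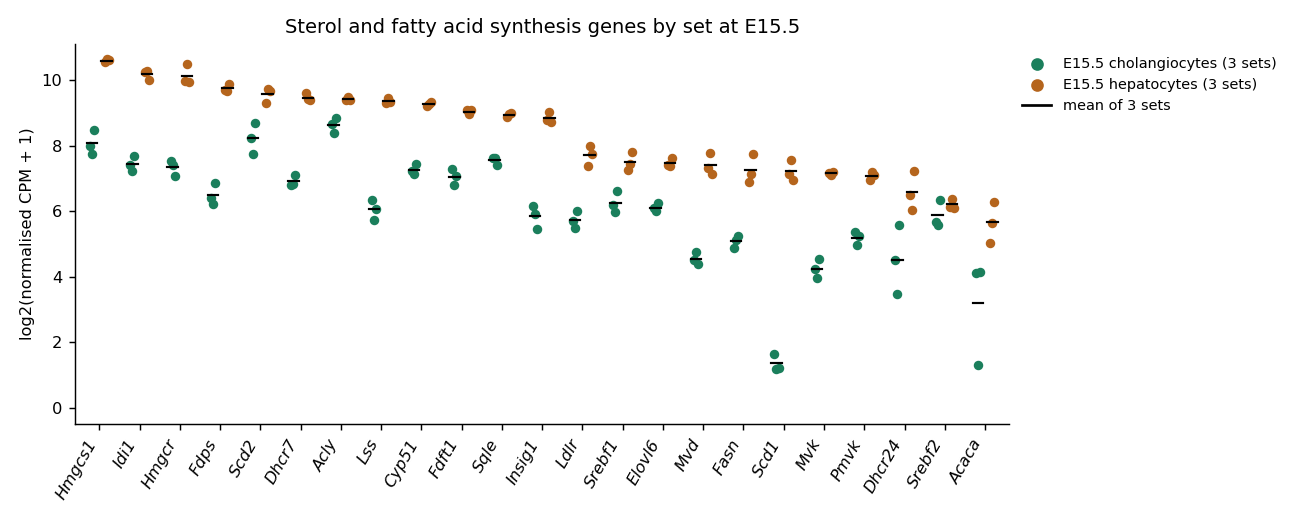
Normalised level, as log2(CPM + 1), of the 23 sterol and fatty acid synthesis genes in the 3 cholangiocyte sets (green, left of each pair) and the 3 hepatocyte sets (brown, right of each pair), ordered by the mean level in hepatocytes, with a bar at the mean of 3 sets. Cholangiocytes lie below hepatocytes for 22 of the 23 genes without overlap of sets. Over all 16838 genes tested, 2572 lie below and 3012 above without overlap of sets.

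Many genes of sterol synthesis are controlled by SREBP factors, which bind sterol regulatory elements, often beside CCAAT boxes bound by NF-Y. The element TCACCCCAC was searched on both strands of the same RefSeq windows. It was found in 1 of 15 list members matched to a window, Hmgcs1. Its share was 0.551% of all windows, or 0.614% of genes with a window. The box CCAAT, on either strand, was found in 13 of the 15, and in 37.4% of all windows, or 41.1% of genes with a window. Hmgcs1, which makes the first committed precursor of the sterol pathway, had 253, 216 and 355 CPM in cholangiocytes against 1493, 1590 and 1571 CPM in hepatocytes (-2.50 ± 0.25, adjusted p = 1.0e-08). Idi1, an isomerase of the same pathway, had 169, 148 and 203 CPM in cholangiocytes against 1218, 1254 and 1020 CPM in hepatocytes (-2.75 ± 0.18, adjusted p = 4.6e-12). Both windows are shown because the genes were called and hold the letters, a choice made after their values were seen. Capitals mark the element in Hmgcs1 and the boxes, read on the opposite strand, in Idi1. The Hmgcs1 window also holds CCAAT boxes, which are left in small letters.
Hmgcs1, chr13:119690101-119690400, plus strand: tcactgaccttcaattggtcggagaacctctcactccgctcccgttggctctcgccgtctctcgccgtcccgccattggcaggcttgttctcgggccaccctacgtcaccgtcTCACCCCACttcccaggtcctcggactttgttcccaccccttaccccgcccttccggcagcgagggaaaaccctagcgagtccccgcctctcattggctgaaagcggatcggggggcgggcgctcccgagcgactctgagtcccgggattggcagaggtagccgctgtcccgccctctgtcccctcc
Idi1, chr13:8885356-8885655, plus strand: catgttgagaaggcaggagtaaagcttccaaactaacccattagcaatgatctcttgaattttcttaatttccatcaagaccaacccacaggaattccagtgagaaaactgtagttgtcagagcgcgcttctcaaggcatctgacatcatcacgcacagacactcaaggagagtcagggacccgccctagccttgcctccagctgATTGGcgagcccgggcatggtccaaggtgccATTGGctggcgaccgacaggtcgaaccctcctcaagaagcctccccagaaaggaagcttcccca

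Bile acid synthesis and hepatocyte transport had a median of -2.95, the lowest of the 34 lists, with 10 of 17 lower and none higher, and 6 lower without cholangiocyte set 3. The canalicular bile salt pump Abcb11 had 1 read over the cholangiocyte sets against 44.4, 53.5 and 86.7 CPM in hepatocytes (adjusted p = 6.9e-07). Slco1b2, an uptake carrier of the sinusoidal membrane, likewise had 1 read over the cholangiocyte sets against 26.1, 45.9 and 41.8 CPM in hepatocytes (adjusted p = 0.0012). Slc27a5, which conjugates bile acids to coenzyme A, had 3.23, 0.0991 and 0 CPM in cholangiocytes against 130, 116 and 147 CPM in hepatocytes (-6.64 ± 1.01, adjusted p = 1.2e-05). These genes were at or near 0 in the cholangiocyte sums, where Afp and Apoa1 were abundant.

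Amino acid and fatty acid breakdown genes were mostly lower. Of 24 genes of the urea cycle and amino acid breakdown 18 fell, and of 20 genes of fatty acid oxidation and ketogenesis 16 fell. Haao, an enzyme of tryptophan breakdown, had 11, 9.02 and 12.9 CPM in cholangiocytes against 186, 275 and 274 CPM in hepatocytes (-4.47 ± 0.60, adjusted p = 1.7e-06). Acsl1, which activates long-chain fatty acids, had 100, 69.6 and 141 CPM in cholangiocytes against 826, 849 and 954 CPM in hepatocytes (-3.08 ± 0.31, adjusted p = 8.6e-09). The exception in the amino acid list was Sds, serine dehydratase, with 31.5, 12.6 and 20.9 CPM in cholangiocytes and no read in hepatocytes (at least 82.0-fold higher, adjusted p = 5.3e-05). Sds reached 1 TPM in 26 of 36 cholangiocytes and 0 of 39 hepatocytes. Gluconeogenesis and glycogen genes had 6 lower and 1 higher (G6pc) of 15, between 4 and 7 lower with a set left out. The rise of G6pc was called with 1 of the 6 sets left out (cholangiocyte set 4) and not with any other, and neither between the whole gates nor by DESeq2. Gys2, the liver glycogen synthase, had 0, 0.198 and 9.52 CPM in cholangiocytes against 396, 272 and 509 CPM in hepatocytes (-7.02 ± 0.99, adjusted p = 4.0e-06).

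Drug metabolism genes had 9 of 22 lower and none higher, and 6 lower between the whole gates. Cyp3a11, a main drug-metabolising P450, had 1 read over the cholangiocyte sets against 276, 27.7 and 223 CPM in hepatocytes (adjusted p = 2.8e-06). Cyp2d10 had 5.67, 4.56 and 11.8 CPM in cholangiocytes against 128, 127 and 141 CPM in hepatocytes (-4.17 ± 0.50, adjusted p = 3.1e-07). It belongs to a family of near-identical genes, and how reads that match several of them were counted was not examined, so its level is uncertain. Iron and heme genes had 5 of 16 lower and none higher. The counts were 7 lower and 3 higher with DESeq2, and 6 lower and 2 higher with only the E15.5 sums. They were 6 lower and 1 higher with the replicate block, and 5 lower and 2 higher with the block on sets 3 and 4.

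Transcription factors of the hepatocyte moved both ways. Of 26, 8 fell and 3 rose, with a median of -0.60, and 1 rose with spike-in scaling. Tbx3, a repressor needed for hepatoblast growth, had 0.0839, 0.198 and 0.571 CPM in cholangiocytes against 30.9, 51.3 and 51.8 CPM in hepatocytes (-7.46 ± 1.11, adjusted p = 9.6e-06). Atf5 had 14.3, 13 and 13.1 CPM in cholangiocytes against 43.3, 74.8 and 81.9 CPM in hepatocytes (-2.30 ± 0.35, adjusted p = 1.3e-05). Hnf4a, the central regulator of the hepatocyte, had 53.7, 44.3 and 78.4 CPM in cholangiocytes against 121, 107 and 97.8 CPM in hepatocytes (-0.88 ± 0.31, adjusted p = 0.051). It was at 1 TPM or more in 31 of 36 cholangiocytes and 38 of 39 hepatocytes, and at 10 TPM or more in 25 and 37 of them. The rises were Onecut1, Hhex and Zbtb20, of which Zbtb20, a repressor of Afp, had 128, 228 and 113 CPM in cholangiocytes against 20.9, 38 and 18.6 CPM in hepatocytes (2.60 ± 0.64, adjusted p = 0.0046) and was not called with spike-in scaling.

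The fetal and oncofetal list held 3 rises and 8 falls among 18. Mdk, which encodes the growth factor midkine, had 204, 237 and 127 CPM in cholangiocytes against 6.38, 6.82 and 1.98 CPM in hepatocytes (5.25 ± 0.71, adjusted p = 1.8e-06). Lin28a, which blocks maturation of let-7 microRNAs, had 20.4, 18.9 and 11.7 CPM in cholangiocytes against 0.566, 0.609 and 2.41 CPM in hepatocytes (3.77 ± 0.91, adjusted p = 0.0040). Cited1, a transcriptional cofactor, had 27.6, 16.9 and 38.4 CPM in cholangiocytes against 155, 116 and 173 CPM in hepatocytes (-2.42 ± 0.48, adjusted p = 0.00051).

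**Figure D2:**
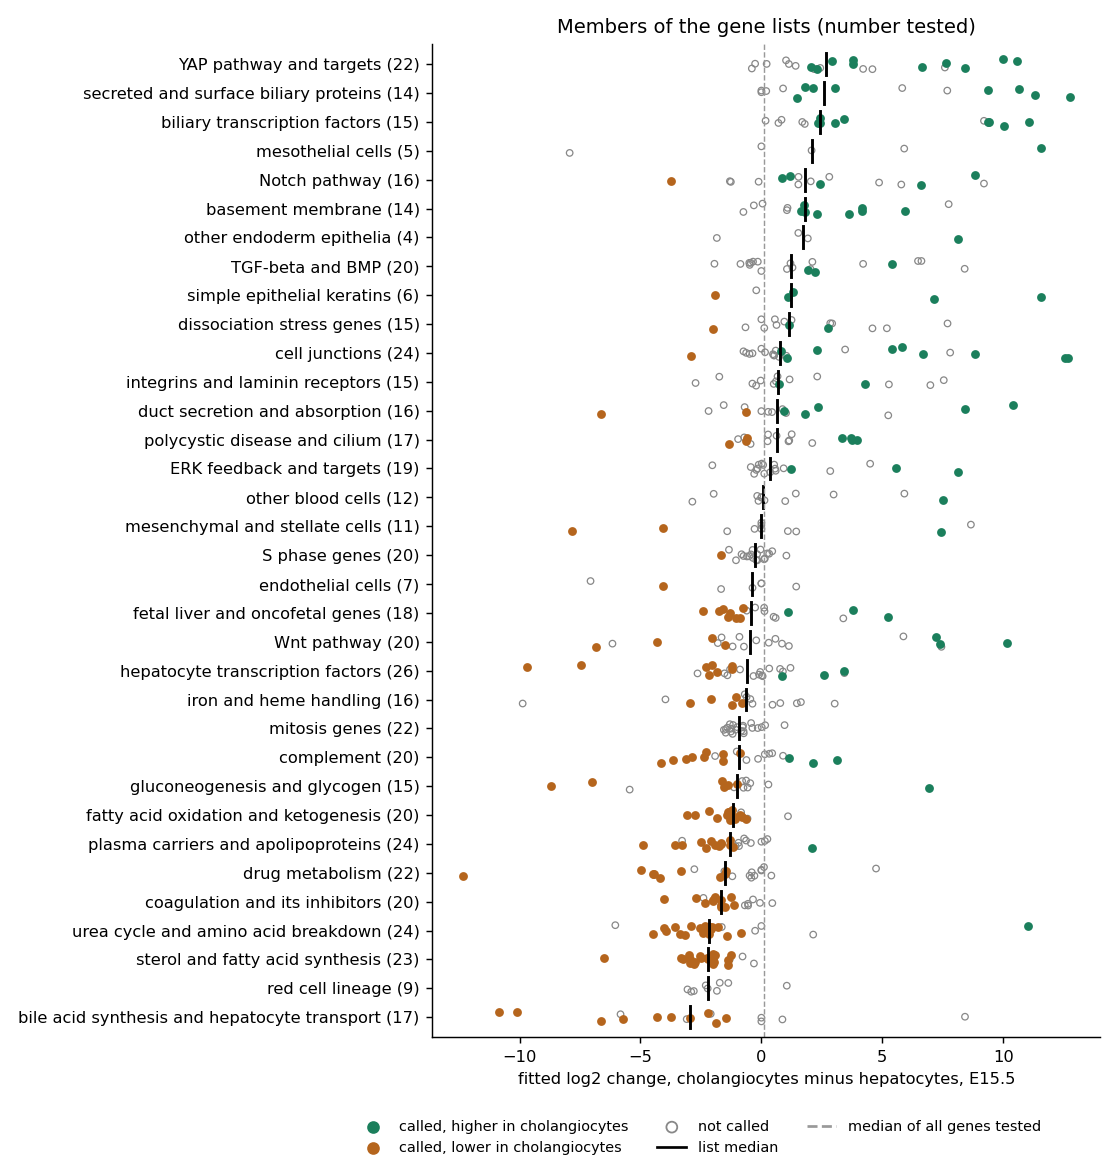
Fitted log2 change of cholangiocytes over hepatocytes at E15.5 for each measured member of 34 gene lists, ordered by list median (black bar), with the number of members tested in brackets. Filled points passed the test (green higher, brown lower in cholangiocytes), open points did not, and the dashed line is the median of all genes, 0.10.

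Few proliferation genes were called at E15.5. Of 22 mitosis genes none was called by edgeR, with 1 lower at an unadjusted p below 0.05 and 1 called lower without hepatocyte set 4 or cholangiocyte set 2, and of 20 S phase genes 1 fell, the cyclin gene Ccne1. Cdk1, the mitotic kinase, had 93.2, 33.4 and 57.9 CPM in cholangiocytes against 238, 110 and 74.2 CPM in hepatocytes (-1.19 ± 0.46, adjusted p = 0.090), and the sets overlapped. A mitosis score, the mean of log2(TPM + 1) over the list, was 2 or more in 8 of 36 cholangiocytes and in 17 of 39 hepatocytes. The same score over the S phase genes was 2 or more in 34 of 36 cholangiocytes and in 32 of 39 hepatocytes. Ccne1 was called with adjusted p = 0.034 and not without hepatocyte set 1 or 3 or cholangiocyte set 2 or 3 (adjusted p = 0.11, 0.084, 0.082 and 0.16). Neither fit with a replicate block called Ccne1. DESeq2 called 1 of the mitosis genes and 4 of the S phase genes, all lower. Dissociation stress genes had 2 rises and 1 fall among 15. These became 1 rise and 1 fall without hepatocyte set 1 or with spike-in scaling, 1 rise and no fall without hepatocyte set 4 or cholangiocyte set 2 or 3, and 6 rises and 1 fall by DESeq2. Jun, an immediate early gene, had 148, 104 and 164 CPM in cholangiocytes against 7.68, 19.7 and 33.2 CPM in hepatocytes (2.77 ± 0.70, adjusted p = 0.0053). The part of sorting in these values was not tested.

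Markers of other cell types were mostly low. Of 13 red cell genes with counts, 9 were tested, and none was called by edgeR or DESeq2 or had an unadjusted p below 0.05, and their summed level was 1.78 to 4.66 CPM in cholangiocyte sets and 5.98 to 28.4 CPM in hepatocyte sets. The 16 genes of other blood cells summed to 16.9 to 46.2 CPM in cholangiocytes and 0.731 to 6.12 CPM in hepatocytes. Of these Csf1r, a growth factor receptor of macrophages, rose, with 7.89, 36.9 and 23 CPM in cholangiocytes against 0.162, 0.122 and 0.0618 CPM in hepatocytes (7.52 ± 1.75, adjusted p = 0.0053), while Ptprc, Spi1, Cd34, Cd5l, Marco and Pf4 had no read in cholangiocytes. Of the 12 genes of other blood cells tested, 3 were higher in cholangiocytes at an unadjusted p below 0.05 and none was lower. Over all 16838 genes tested, 4450 had an unadjusted p below 0.05 in either direction. DESeq2 called 3 of this list higher. Mesenchymal and stellate genes summed to 239 to 289 CPM in cholangiocytes and 80.6 to 143 CPM in hepatocytes. The rise in that list was Vim, which encodes the intermediate filament vimentin, with 244, 277 and 232 CPM in cholangiocytes against 0.889, 0.122 and 2.90 CPM in hepatocytes (7.45 ± 0.81, adjusted p = 4.2e-08). Vim was at 11.4 TPM or more in all 36 cholangiocytes, while Col1a2, Dcn, Lum and Pdgfrb had no read in their sums. Pdgfrb was called lower (adjusted p = 0.049) on 64 reads in hepatocytes, none of them in set 4. Reln, a matrix protein of stellate cells, was instead lower in cholangiocytes, with 7.01, 5.25 and 5.43 CPM against 91.5, 74.3 and 138 CPM in hepatocytes (-4.09 ± 0.57, adjusted p = 3.6e-06). The endothelial list summed to 16.6 to 25.6 CPM in cholangiocytes and 54.7 to 77.6 CPM in hepatocytes, with Stab1 lower in cholangiocytes (-4.07 ± 0.72, adjusted p = 0.00011) and Emcn, Esam, Kdr, Lyve1 and Tek at 0 reads in both types. Mesothelial genes summed to 31.1 to 95.9 CPM in cholangiocytes, with Krt19 the highest, and 0.646 to 15 CPM in hepatocytes, with Wt1, Msln, Lrrn4 and Upk1b at 0 reads in both. Genes of other endoderm epithelia summed to 44.8 to 61.9 CPM in cholangiocytes and 52.9 to 101 CPM in hepatocytes, with Cdx2, Neurog3, Nkx6-1, Prss1, Ptf1a and Sox2 at 0 reads in both. Pdx1, a pancreatic and duodenal factor, rose, with 3.19, 2.97 and 2.57 CPM in cholangiocytes and no read in hepatocytes, and was not called with any 1 hepatocyte set left out. The part of other cells in the results was not tested.

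Single cholangiocytes covered a wider range of plasma protein levels than single hepatocytes. A plasma protein score, the mean of log2(TPM + 1) over the 24 plasma carriers and apolipoproteins, ran from 5.73 to 10.68 in cholangiocytes with a median of 9.14, and from 9.61 to 10.95 in hepatocytes with a median of 10.48. Of the 36 cholangiocytes 13 lay within the range of the hepatocytes and 23 below it. The 13 were 6 of 18 cells of set 2, 1 of 8 of set 3 and 6 of 10 of set 4. The same score over the 14 secreted and surface biliary proteins ran from 3.26 to 6.59 in cholangiocytes and from 2.04 to 3.00 in hepatocytes, a gap that the annotation, if it used such genes, would itself give. Within cholangiocytes the scores ran against each other, with a Spearman rho of -0.67 over 36 cells and -0.61, -0.60 and -0.36 within sets 2, 3 and 4, as a description of cells that share sets. Afp and Epcam had a rho of -0.83 over the same cells, and of -0.70, -0.50 and -0.73 within sets 2, 3 and 4. For Afp and Cd24a it was -0.72 over all, and -0.79, -0.83 and -0.22 within these sets. For Afp and Spp1 it was -0.60 over all, and -0.47, -0.29 and -0.58 within these sets. Total reads had a rho of 0.53 with the plasma score and of -0.15 with the biliary score, and median depth was 1031900 reads per cholangiocyte and 1112900 per hepatocyte.

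**Figure D3:**
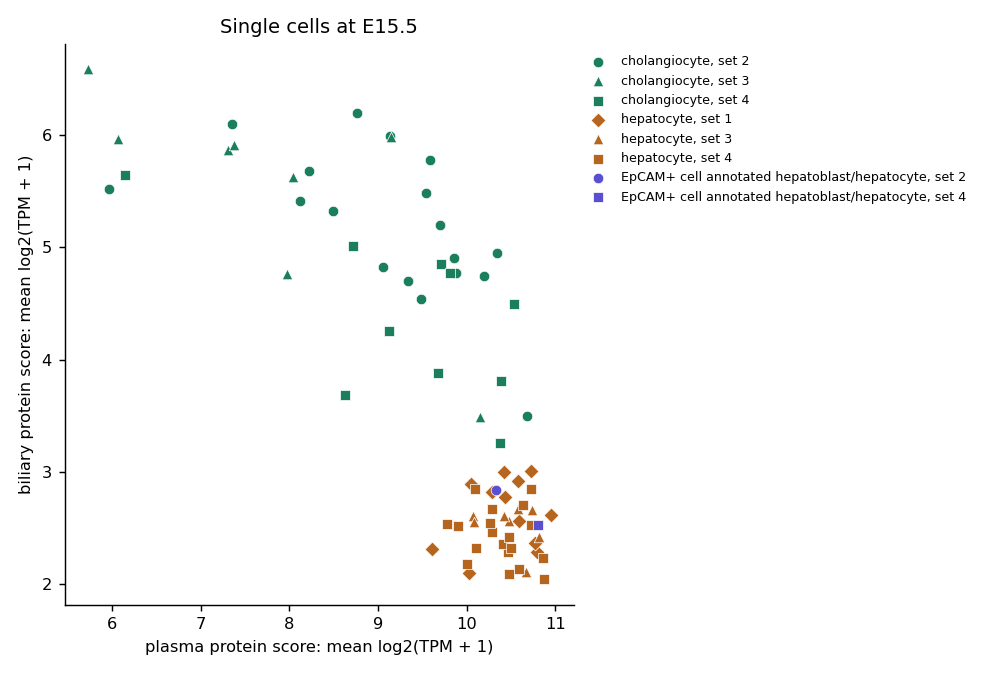
Each point is a cell of E15.5, placed by its plasma protein score (horizontal) and its biliary protein score (vertical), both means of log2(TPM + 1), with the set as the marker shape. Cholangiocytes (green) spread from plasma scores of 5.73 to 10.68, hepatocytes (brown) stay between 9.61 and 10.95, and the 2 EpCAM+ cells annotated hepatoblast/hepatocyte (purple) lie among the hepatocytes.

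Single genes varied in the same cells. Cholangiocytes of set 3 had the lowest cell medians of Alb (9864 TPM, against 28736 TPM in set 2 and 49835 TPM in set 4), and the highest of Spp1 (7837 TPM, against 973 TPM in set 2 and 18.7 TPM in set 4). Apoa1 ran from 1.73 to 24177 TPM over cholangiocytes and from 9074 to 33600 TPM over hepatocytes. The sterol list, scored likewise, was at 3.02 to 6.02 in cholangiocytes, with 5 of 36 cells within the hepatocyte range, and 5.34 to 7.56 in hepatocytes. Their rho with the plasma score was 0.46 over all cholangiocytes, and 0.16, 0.60 and 0.89 within sets 2, 3 and 4. The 2 EpCAM+ cells annotated hepatoblast/hepatocyte had 91.2 and 0 TPM of Epcam, 0 and 6.75 TPM of Sox9 and 63476 and 81013 TPM of Afp.

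The contrast at E15.5 was then set against the same contrast at E14.5 (17 cholangiocytes and 27 hepatocytes) and E17.5 (34 cholangiocytes and 35 hepatocytes), which use other cells. At E14.5 1973 genes (11.7%) were called in either direction, and at E17.5 3993 (23.7%). Of the 2320 genes called at E15.5, 1822 were called in the same direction at E17.5, which is 78.5% of the E15.5 list and 45.6% of the E17.5 list, and 5 in the opposite direction. With E14.5, 1330 calls were shared in direction, 57.3% of the E15.5 list and 67.4% of the E14.5 list, and 2 were opposite. The test of the difference itself, the contrast at E15.5 minus that of the other day, called 4 genes (0.0238%) against E14.5 and 200 (1.19%) against E17.5. At an unadjusted p below 0.05 these counts were 1214 and 1917. The count of 200 was 85 without E15.5 hepatocyte set 1, 97 without E15.5 hepatocyte set 3, 96 without E15.5 cholangiocyte set 4 and 118 without E17.5 cholangiocyte set 3, and it was 35 with spike-in scaling.

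For several plasma protein genes the contrast was smaller at E15.5 than at E17.5. Among 24 plasma carriers and apolipoproteins 5 differed between these days, among 20 coagulation genes 6 and among 20 complement genes 4. The fibrinogen gene Fgb had a log2 change of -1.66 ± 0.31 at E15.5 and -4.61 ± 0.34 at E17.5 (difference 2.95 ± 0.42, adjusted p = 0.00030). Its mean level was 1555 CPM in cholangiocytes and 4929 CPM in hepatocytes at E15.5, and 1463 CPM in cholangiocytes and 35803 CPM in hepatocytes at E17.5. The cholangiocyte means lay close together, and the hepatocyte mean was higher at E17.5. Afp had a log2 change of -1.31 ± 0.22 at E15.5 and -2.94 ± 0.23 at E17.5 (difference 1.62 ± 0.30, adjusted p = 0.004). Apoa1 had -2.07 ± 0.38 at E15.5 and -5.15 ± 0.43 at E17.5, with mean levels of 3334 CPM in cholangiocytes and 14042 CPM in hepatocytes at E15.5, and 902 CPM in cholangiocytes and 32017 CPM in hepatocytes at E17.5.

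Proliferation genes also differed between the days. At E17.5 12 of 22 mitosis genes and 13 of 20 S phase genes were called, all of them higher in cholangiocytes, whereas no gene of either list rose at E15.5, and the difference itself was called for 2 mitosis and 6 S phase genes. Over all 16838 genes tested, 2100 were called higher and 1893 lower in cholangiocytes at E17.5. Cdk1 had a log2 change of -1.19 ± 0.46 at E15.5 and 1.82 ± 0.44 at E17.5 (difference -3.01 ± 0.64, adjusted p = 0.014). Its mean level in cholangiocytes was 61.5 CPM at E15.5 and 58.9 CPM at E17.5, whereas in hepatocytes it was 141 CPM at E15.5 and 16.6 CPM at E17.5. Ccnd1 had 1.21 ± 0.17 at E15.5 and 2.81 ± 0.17 at E17.5 (difference -1.61 ± 0.23, adjusted p = 0.00037). The actin-bundling gene Fscn1 had 1.23 ± 0.24 at E15.5 and 3.94 ± 0.26 at E17.5, and its hepatocyte mean was 46.5 CPM at E15.5 and 3.03 CPM at E17.5. Its rise at E15.5 was not called with spike-in scaling, while the difference between the days was. Limd2 was not called at E15.5 (-0.57 ± 0.20, adjusted p = 0.062), and at E17.5 it was higher by 2.21 ± 0.20 (difference -2.78 ± 0.28, adjusted p = 9.8e-07).

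Onecut1 had the opposite course, with a larger contrast at E15.5 than at E17.5. Its log2 change was 3.43 ± 0.43 at E15.5 and 0.00 ± 0.36 at E17.5 (difference 3.44 ± 0.56, adjusted p = 0.00084). Its mean level was 49.9 CPM in cholangiocytes and 4.60 CPM in hepatocytes at E15.5, and 63.9 CPM in cholangiocytes and 64.2 CPM in hepatocytes at E17.5. Of the 23 sterol and fatty acid synthesis genes 19, 20 and 21 fell at E14.5, E15.5 and E17.5, none was called different between E15.5 and E17.5 by edgeR (3 at an unadjusted p below 0.05), and the medians were -1.57, -2.19 and -2.03. With spike-in scaling the differences of Afp, Cdk1, Ccnd1 and Onecut1 were not called (adjusted p = 0.39, 0.15, 0.20 and 0.11), and that of Cdk1 was not called without E15.5 hepatocyte set 1 either (adjusted p = 0.086).

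**Figure D4:**
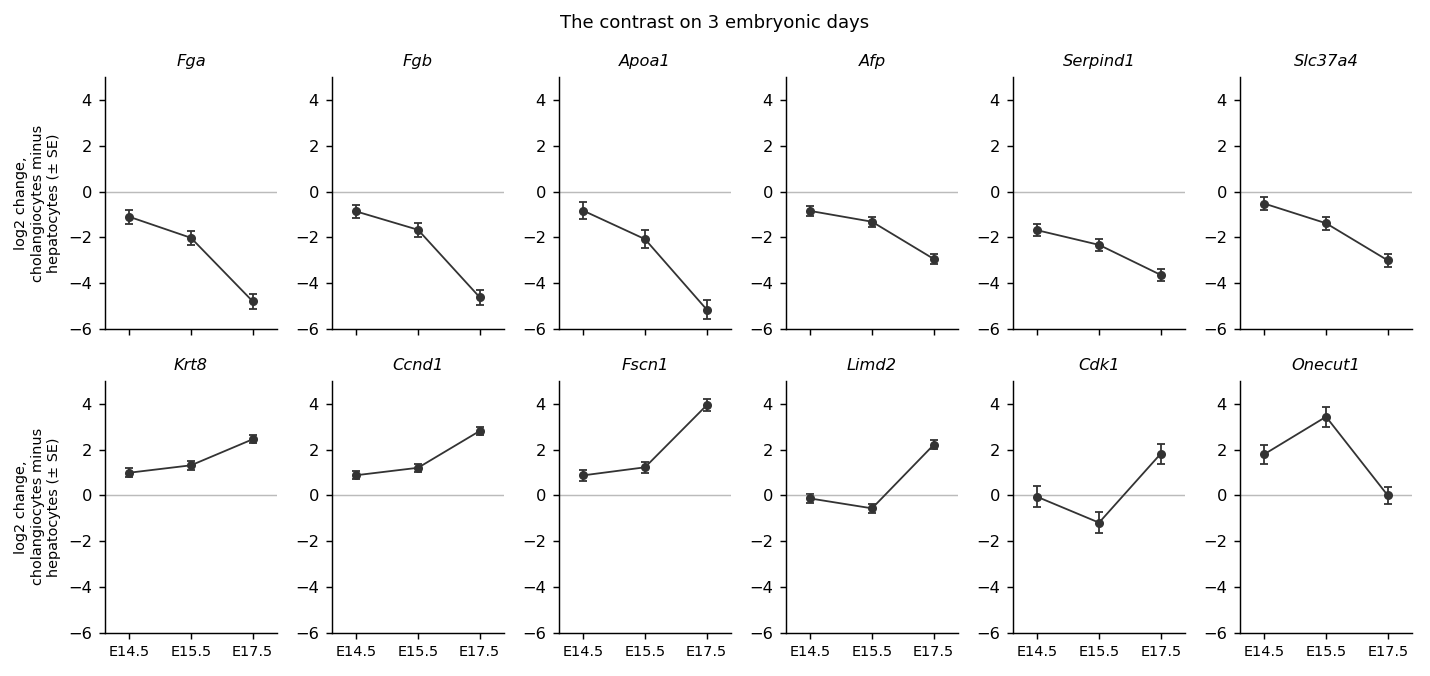
Log2 change of cholangiocytes over hepatocytes, with SE, at E14.5, E15.5 and E17.5 for 12 genes whose contrast at E15.5 differed from that at E17.5 by the test. Plasma protein and metabolic genes (upper row) are most negative at E17.5, with Fgb at -0.86, -1.66 and -4.61 on the 3 days, Krt8, Ccnd1 and Fscn1 are most positive at E17.5, Limd2 and Cdk1 are positive at E17.5 alone, and Onecut1 is at 0.00 at E17.5.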

How the data were processed

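The authors deposited, per the file headers and labels, a table of raw read counts per gene and a table of normalised TPM values (per transcript length and library total) for each single cell, with a gene length column. Per the submitters' processing notes, TopHat2 2.1.0, Bowtie2 and HTSeq 0.6.0 with GRCm38/mm10 were used. Whether counting used strand is not given in the sources used here. The deposited TPM equal the counts over length within 0.005. Another 82 columns of cells that match no sample given here were not used. Counts of cells with the same group and set were added up (at least 2 cells). The 42 sums of all embryo groups were fitted together, so that they share an estimate of spread, with edgeR 4.0.16 (R 4.3.3): TMM scaling, a filter at a minimum count of 10, the quasi-likelihood test and Benjamini-Hochberg adjustment at 0.05 over 16838 genes. SE is the log2 change over the square root of F. Folds against a type with no read use a floor of 3 reads per sum and cover counting error only, since reads without molecular identifiers are not independent molecules. Reads can match more than 1 gene in families such as Cyp2d and Cyp3a, or where genes overlap. How such reads were counted was not examined. The fitting was tested on simulated data. Alternatives were spike-in and upper-quartile scaling, other filters, E15.5 sums alone, thinned cells, whole gates, a replicate block, DESeq2 1.42.0 and leaving out sets. Named genes were the 10 largest rises and 10 largest falls among called genes with at least 10 CPM and no overlap of sets, up to 4 called members per list, and genes that differed between days. Not every one is described, some genes are not reported here, and Ajuba, Amotl2, Hmgcs1, Idi1, Notch1, Pdx1, Pdgfrb, G6pc and Hhex were named after their values were seen. The comparison, lists and rules were chosen with earlier results of these data known. Promoter windows are from RefSeq, GRCm38.p6. Doublets were not called, since cells were picked by hand.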

Additional observations from a re-analysis of the deposited data

Results flagged for a closer look

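The contrast of cholangiocytes over hepatocytes differed between days, by the interaction test, for the genes below, with all values as the log2 contrast at E15.5 minus that of the other day. Against E14.5 the difference was -9.68 for Tuba8, an alpha-tubulin, 2.25 for Impdh1, an enzyme of guanine nucleotide synthesis, and 7.91 for 2810007J24Rik. Tuba8 had no read in E15.5 cholangiocytes and 2810007J24Rik none in E14.5 cholangiocytes, so both values depend on the prior count. Against E17.5 the difference was positive, a smaller fall or larger rise at E15.5, for Fgb (2.95), Fga (2.77), Apoa1 (3.07), Afp (1.62), Serpind1 (1.31), C8g (2.00), Slc37a4 (1.62), Onecut1 (3.44), Sds (8.44) and 2810007J24Rik (5.98). It was negative for Limd2 (-2.78), Fscn1 (-2.71), Ccnd1 (-1.61), Cdk1 (-3.01), Krt8 (-1.14), Panx1 (-9.09), Tuba8 (-6.55) and Slc6a12 (-6.91). Sds had no read in E15.5 hepatocytes, Slc6a12 none in E15.5 cholangiocytes, Panx1 none in E17.5 hepatocytes and 2810007J24Rik none in E17.5 cholangiocytes, so those values depend on the prior count too.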

How the results depend on the processing

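No called direction among the genes called at E15.5 turned round in any of 16 alternatives, and 91 of the 130 called named genes stayed called in all of them. The total of 2320 calls at E15.5 was 1393 with spike-in scaling and 3909 with DESeq2, and 1644 to 2071 with any 1 set left out. The 1019 rises were 389 with spike-in scaling, 2029 with DESeq2 and 574 to 882 with a set left out, and the 1301 falls were 969 to 1189 with a set left out. The cause of these shifts was not tested, beyond the smaller number of sets. A fit with the set number as a replicate block gave 1264 calls, 389 of them rises. A replicate block on sets 3 and 4 only, the numbers that both types share, gave 1183 calls, 488 higher and 695 lower. Of the 130 called named genes, 22 were not called with the replicate block, among them Hes1, Ano1, Grhl2, Sfrp1, Ptpn14 and Zbtb20. With the block on sets 3 and 4 only, 20 were not called, among them Afp, Itgb1 and Ptpn14. Deviations of same-numbered sets correlated at 0.0575 (set 3) and 0.0976 (set 4), and those of other pairs at -0.0776 to 0.097. With only sets 3 and 4 shared, these values cannot decide whether same-numbered sets are paired. The 4 genes whose contrast differed from E14.5 became 2 with spike-in scaling, 7 with no filter and 2 to 10 with a set left out. That count was 0 by edgeR with only the sums of both days (681 at an unadjusted p below 0.05) and 0 with the replicate block (725). The 200 genes that differed from E17.5 became 35 with spike-in scaling, 38 with the replicate block and 85 to 290 with a set left out. The median of the list of other blood cells, 0.065, became -0.39 without cholangiocyte set 4. That of the mesenchymal and stellate list, 0.00, became -0.30 with only the E15.5 sums, -1.22 with the replicate block on sets 3 and 4 and 0.18 with DESeq2, and its 2 falls became 1 without any 1 set other than hepatocyte set 4. The other medians that changed sign, of the cilium, ERK and Wnt lists, stand beside those lists. Sums of 8 to 19 cells limit what could be detected for genes of few reads.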
